A study of Mus musculus with 14 samples.

Results

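The axonemal dynein and cilium genes are the protein-coding mouse genes whose symbol starts with Dnah, Cfap, Rsph or Dnai, without Dnah8. There are 55 of them among the 53465 genes counted. The families were taken up after strain differences of Cfap54 and Dnah6 had been seen in these same libraries, so the values of those genes are given as a description with no test. RNA of anterior cingulate cortex, a region of the medial frontal lobe, was sequenced from the inbred strains AKR/J (AKR below) and C57BL/6NJ (B6N below). Each strain has 4 libraries of naive mice. Another 3 libraries per strain are of mice after observational fear conditioning (OFL below), where a mouse watches another receive shocks. Age, sex and any pooling of mice are not given in the sources used here. Nothing in the labels ties each library to its own animal, so every p-value rests on the spread of these libraries alone, and that spread may be technical.

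The axoneme is the microtubule core of a motile cilium or flagellum. Outer and inner dynein arms, built on heavy chains of the Dnah family, are its motors, intermediate chains hold the outer arm together, and radial spokes carry signals from the central pair of microtubules and its projections to the arms. In the brain motile cilia stand on ependymal cells at the ventricle wall and on choroid plexus, whereas neurons and astrocytes each carry a primary cilium that lacks dynein arms. The Cfap symbol (cilia and flagella associated protein) covers proteins of the central pair, of microtubule linings and of arm assembly, and some with roles outside motile cilia.

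The 55 genes comprised 4 outer arm heavy chains, 10 inner arm heavy chains, 2 intermediate chains, 8 radial spoke genes, 4 genes of a central pair projection (Cfap46, Cfap54, Cfap74 and Cfap221) and 27 other Cfap genes. Levels below are CPM (counts scaled to the library's size), adjusted by the TMM method over all 14 libraries. Library totals were 19073921 to 25780227 counts in the naive set and 13487311 to 14526253 in the OFL set. Of the 55 genes 47 had a count in every library, 11 averaged at least 10 CPM over the 4 groups and 18 averaged under 1 CPM. The expression filter of the tests passed 43 in the naive libraries, 37 in the OFL libraries and 43 in all libraries together, and 11 passed no filter, each with group means under 0.5 CPM. Those 11 included the outer arm gene Dnah11, Cfap221 and the radial spoke gene Rsph14. Because a gene that passes a filter may do so through its higher group, counts over the genes tested below describe them and support no statement on the families as a whole.

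Per kilobase of exonic length, the highest level was that of Cfap36, whose protein binds the small GTPase ARL3, at 23.8 CPM per kb in the mean of the 4 groups. Cfap298 (12.1 CPM per kb) and Cfap300 (8.38 CPM per kb), both known from dynein arm assembly, and Cfap20 (8.43 CPM per kb), a protein of doublet microtubules, came next. The heavy chains were far lower on this scale, with Dnah5 highest at 1.11 CPM per kb and Dnah11 lowest of all members at 0.0184 CPM per kb. Summed over all 55 genes, the level was 403 to 420 CPM in AKR naive, 399 to 413 CPM in B6N naive, 478 to 509 CPM in AKR OFL and 409 to 431 CPM in B6N OFL libraries. Without Cfap54 the same sums were 362 to 380 CPM, 390 to 403 CPM, 372 to 393 CPM and 385 to 406 CPM. The excess of the AKR OFL sum over the B6N OFL sum was thus carried by Cfap54, and without it the AKR sum lay below the B6N sum in naive libraries.

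**Figure D1:**
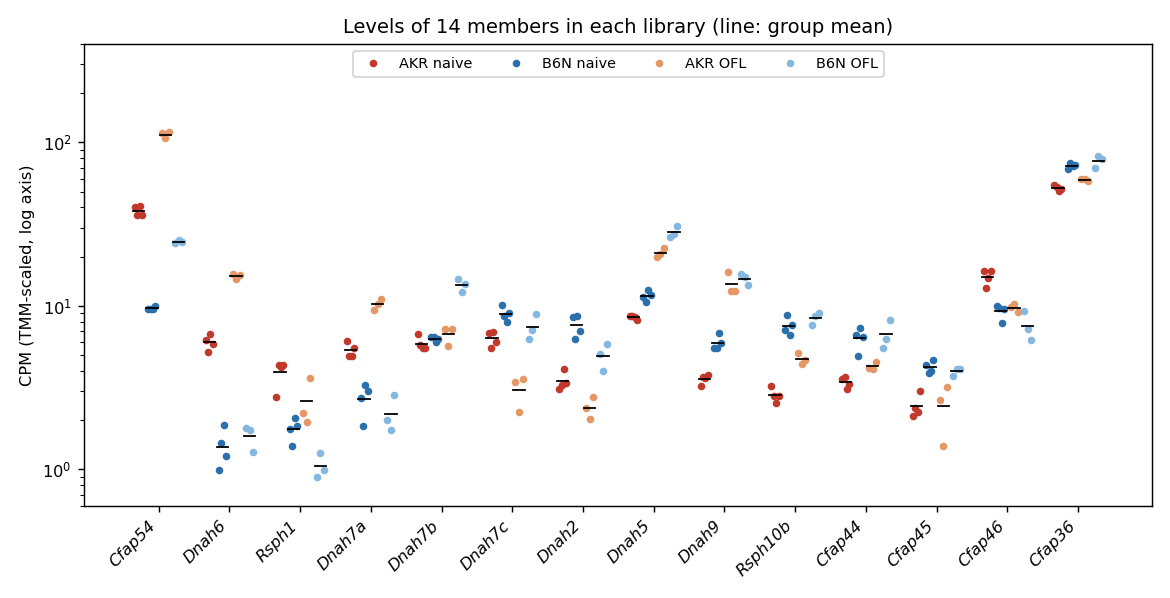
CPM (log axis) of 14 members in each of the 14 libraries, coloured by group, with a line at each group mean. Cfap54 and Dnah6 lie higher in AKR in both sets, Rsph1 and Dnah7a are also higher in AKR, and Dnah2, Rsph10b, Cfap44 and Cfap36 are lower in AKR.

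Cfap54, a large protein of the central pair projection called C1d, and Dnah6, an inner arm heavy chain, were chosen for their strain difference. Cfap54 (ENSMUSG00000020014, chromosome 10, 92775619 to 93081618, minus strand, GRCm38) stood at 40.1, 35.7, 40.6 and 35.9 CPM in AKR naive and at 9.56, 9.58, 9.58 and 9.92 CPM in B6N naive. In OFL libraries Cfap54 was at 113, 106 and 116 CPM in AKR and at 24.1, 25.1 and 24.7 CPM in B6N. All AKR libraries thus lay above all B6N libraries within each set, and the log2 difference was 1.98 in naive and 2.17 in OFL libraries. Dnah6 stood at 6.15, 5.21, 6.73 and 5.84 CPM in AKR naive and at 0.983, 1.44, 1.88 and 1.20 CPM in B6N naive, a log2 difference of 2.14. After OFL Dnah6 was at 15.6, 14.6 and 15.4 CPM in AKR and at 1.78, 1.75 and 1.27 CPM in B6N, a log2 difference of 3.23. The groups did not overlap for Dnah6 in either set. The nearest tested protein-coding gene on each side differed far less between the strains on the log2 scale. For Cfap54 these were Nedd1, at -0.18 in naive and -0.03 in OFL libraries, and Cdk17, at -0.13 and -0.09. For Dnah6 they were Tmsb10, at 0.23 and -0.06, and Suclg1, at -0.01 and 0.12. The next protein-coding gene tested in both sets beyond Suclg1, the predicted gene Gm9008, is not adjacent. It starts at 76495432, whereas Suclg1 ends at 73276911 and Dnah6 at 73221651 on the same chromosome. Gm9008 differed more than Dnah6 itself. It had 115 to 145 counts per library in AKR naive, 0 to 2 in B6N naive, 59 to 63 in AKR OFL and 0 in all B6N OFL libraries.

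The remaining 53 genes asked whether other parts of the axoneme differed between the strains. They split in both directions. In naive libraries 20 of the 41 tested passed (edgeR quasi-likelihood, adjusted p under 0.05 over all genes), against 37.8% of all genes tested, with 7 higher in AKR (18.3% of all genes) and 13 lower (19.5%). Their median log2 difference was -0.11, against 0.01 for all genes. In OFL libraries 11 of 35 passed, against 16.4% of all genes, with 3 higher (7.5%) and 8 lower (8.86%), and their median was 0.00 against 0.00 for all genes. The ranges of the strains did not overlap for 18 of the 41 genes in naive libraries (34.7% of all genes) and for 15 of the 35 in OFL libraries (31.2%). Since the families were chosen on strain differences in these libraries, nothing is read from these shares.

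Between the sets, which hold separate libraries, 34 genes could be compared. Of these 9 passed in both with the same direction, which is 47.4% of the 19 called in naive libraries (Dnah3, the 20th, was not tested after OFL) and 81.8% of the 11 called in OFL libraries, and 0 passed in opposite directions. Over all 15915 genes tested in both sets, the same-direction calls were 32.9% of those called in naive and 74.2% of those called in OFL libraries, and nothing is read from the members' shares. Rsph1 and Dnah7a were higher in AKR in both sets, and Cfap36, Cfap44, Cfap45, Dnah2, Dnah5, Dnah7c and Rsph10b were lower in both. These 9 came from the outer arm, the inner arm, the radial spokes and the other Cfap genes, and the directions differed within the spokes and within the inner arm.

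**Figure D2:**
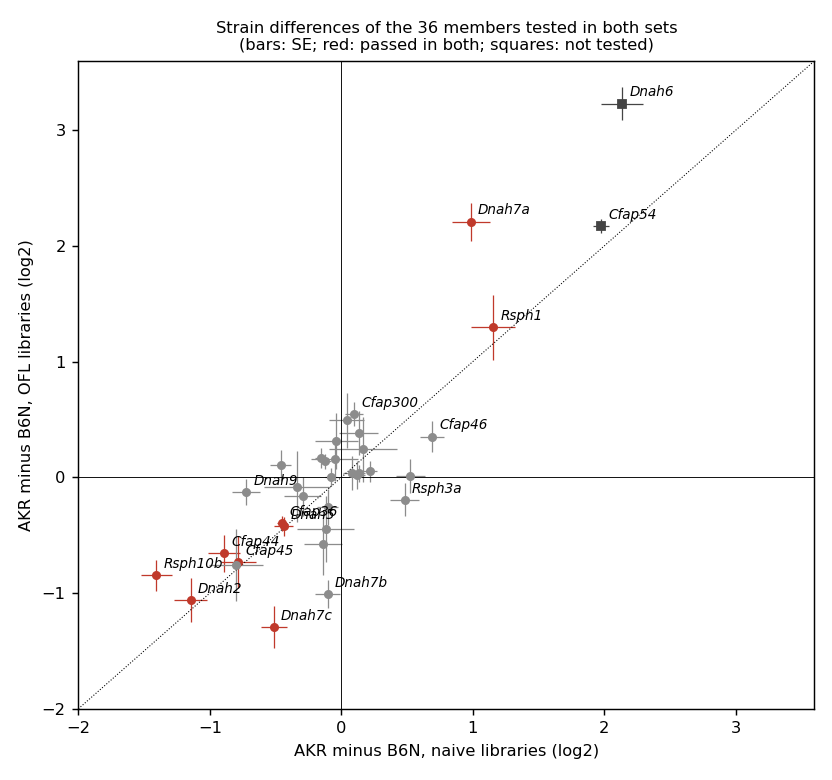
Log2 difference AKR minus B6N of the 36 members tested in both sets, in naive libraries (x axis) and OFL libraries (y axis), with bars of 1 SE and a dotted line of equal values. Red points passed in both sets, grey points did not, and the squares are Cfap54 and Dnah6, which were not tested.

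Among the outer arm heavy chains, Dnah5, whose loss immobilizes cilia, was lower in AKR in both sets. It stood at 8.61, 8.65, 8.60 and 8.13 CPM in AKR naive against 11.4, 10.5, 12.5 and 11.7 CPM in B6N naive. After OFL it was at 19.9, 20.9 and 22.7 CPM in AKR and 26.3, 27.5 and 30.9 CPM in B6N. No AKR library reached the lowest B6N library of its set. The log2 difference was -0.44 (SE 0.07, edgeR adjusted p = 0.000168) in naive and -0.42 (SE 0.08, adjusted p = 0.00121) in OFL libraries. Dnah9, the partner heavy chain in the distal part of cilia, was at 3.25, 3.69, 3.63 and 3.76 CPM in AKR naive and 5.51, 5.53, 6.86 and 5.92 CPM in B6N naive (-0.72, SE 0.11, edgeR adjusted p = 4.72e-05). In OFL libraries the strains overlapped for Dnah9, at 12.3 to 16 CPM in AKR and 13.4 to 15.6 CPM in B6N, and the difference of -0.13 did not pass (adjusted p = 0.508). Dnah17, a heavy chain of the sperm flagellum, differed by 0.28 in naive libraries (edgeR adjusted p = 0.121) and did not pass the OFL filter.

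Among the inner arm heavy chains, Dnah2, a motor of the arm called f, was lower in AKR in both sets. Its levels were 3.10, 3.26, 4.09 and 3.37 CPM in AKR naive, 8.53, 6.30, 8.64 and 7.04 CPM in B6N naive, 2.37, 2.02 and 2.77 CPM in AKR OFL and 5.08, 3.99 and 5.80 CPM in B6N OFL. The groups did not overlap in either set. The log2 difference was -1.14 (SE 0.13, edgeR adjusted p = 1.40e-06) in naive and -1.06 (SE 0.19, adjusted p = 0.000491) in OFL libraries. Dnah10, the other heavy chain of that arm, differed by -0.14 (adjusted p = 0.493) and -0.58 (adjusted p = 0.169), and neither value passed. Dnah1 (0.12 and 0.02) and Dnah14 (-0.05 and 0.16) did not pass in either set. Dnah3 passed in naive libraries at -0.60 (SE 0.23, edgeR adjusted p = 0.0486). Its call was lost in 8 of 16 alternatives, with an adjusted p of up to 0.141. The 8 were DESeq2, no count filter, the replicate block and leaving out AKR naive replicate 2, 3 or 4 or B6N naive replicate 1 or 3.

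The inner arm genes Dnah7a, Dnah7b and Dnah7c are near-identical copies on chromosome 1 (GRCm38): Dnah7a lies at 53397006 to 53706784 on the minus strand, Dnah7b at 46066315 to 46373546 and Dnah7c at 46425592 to 46807476 on the plus strand. Their coding sequences, from the GENCODE transcripts of GRCm38, were identical at 96.8% to 97.3% of aligned bases. The following stretch of 120 coding bases shows how few positions separate them, with the 3 positions at which any copy differs in capitals. It starts at coding base 5972 in Dnah7a and Dnah7c and 6104 in Dnah7b.
Dnah7a: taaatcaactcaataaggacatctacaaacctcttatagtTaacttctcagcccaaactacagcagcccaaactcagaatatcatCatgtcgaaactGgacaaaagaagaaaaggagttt
Dnah7b: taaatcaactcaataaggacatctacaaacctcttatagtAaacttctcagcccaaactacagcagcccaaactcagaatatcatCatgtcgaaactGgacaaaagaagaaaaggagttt
Dnah7c: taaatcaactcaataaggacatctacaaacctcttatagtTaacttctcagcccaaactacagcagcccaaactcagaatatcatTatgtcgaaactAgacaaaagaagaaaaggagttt
Between 40.1% and 61.6% of the stretches of 31 exonic bases of each copy also occur in another gene. Reads that hold no differing position cannot be assigned to a copy, and the values of single copies are uncertain. The share of such reads was not tested.

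The copies nevertheless moved in opposite directions in the counts. Dnah7a stood at 6.05, 4.92, 4.92 and 5.49 CPM in AKR naive and 2.71, 1.84, 3.26 and 3.01 CPM in B6N naive, then at 9.42, 10.2 and 11 CPM in AKR OFL and 1.99, 1.75 and 2.83 CPM in B6N OFL. Every AKR library lay above every B6N library. The difference was 0.98 (SE 0.15, edgeR adjusted p = 3.91e-05) in naive and 2.21 (SE 0.16, adjusted p = 6.89e-09) in OFL libraries. Dnah7c went the other way, at 6.79, 5.55, 6.89 and 6.01 CPM in AKR naive, 10.1, 8.68, 7.95 and 9.06 CPM in B6N naive, 3.41, 2.23 and 3.57 CPM in AKR OFL and 6.31, 7.14 and 8.92 CPM in B6N OFL. It was lower in AKR by -0.51 (SE 0.10, edgeR adjusted p = 0.000453) in naive and -1.29 (SE 0.18, adjusted p = 3.64e-05) in OFL libraries. Dnah7b overlapped between the strains in naive libraries, at 5.49 to 6.74 CPM in AKR and 5.97 to 6.49 CPM in B6N (-0.10, adjusted p = 0.415). After OFL Dnah7b was at 7.19, 5.71 and 7.21 CPM in AKR and 14.5, 12.1 and 13.6 CPM in B6N, lower in AKR by -1.01 (SE 0.12, edgeR adjusted p = 4.66e-06).

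Summed over the copies, the strains were close. The sum was 16.2 to 19.6 CPM in AKR naive and 17.0 to 19.3 CPM in B6N naive, and 18.2 to 21.8 CPM in AKR OFL and 21.0 to 25.3 CPM in B6N OFL. Refitted as 1 gene, an alternative chosen after the data were seen, it differed by -0.04 (SE 0.07, edgeR adjusted p = 0.703) and -0.22 (SE 0.09, adjusted p = 0.122), and neither passed. What differed was the share assigned to each copy. Dnah7a took 30.5% ± 1.61 (SD, n = 4) of the sum in AKR naive, 15.1% ± 3.45 (SD, n = 4) in B6N naive, 51.3% ± 4.69 (SD, n = 3) in AKR OFL and 9.41% ± 1.54 (SD, n = 3) in B6N OFL libraries. Dnah7b took 58.3% ± 5.05 (SD, n = 3) in B6N OFL and 33.5% to 35.2% on average in the other 3 groups.

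**Figure D3:**
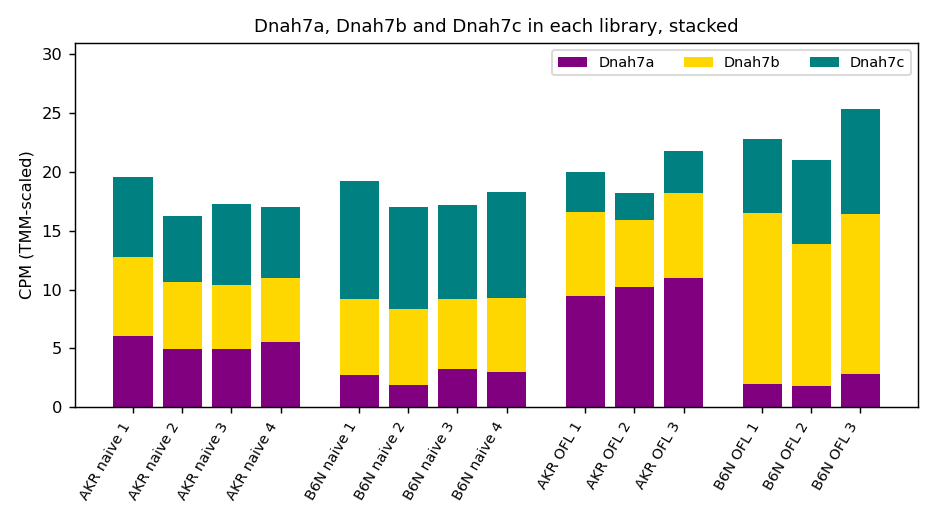
Stacked CPM of Dnah7a, Dnah7b and Dnah7c in each of the 14 libraries. The bars stand between 16.2 and 25.3 CPM while Dnah7a takes about 51.3% of it in AKR OFL and 9.41% in B6N OFL libraries.

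The intermediate chains of the outer arm, Dnaic1 and Dnaic2, did not pass between the strains. Dnaic1 differed by 0.04 (SE 0.13, edgeR adjusted p = 0.838) in naive and 0.49 (SE 0.24, adjusted p = 0.182) in OFL libraries. Dnaic2 differed by -0.17 (SE 0.18, adjusted p = 0.538) in naive libraries and did not pass the OFL filter.

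Among the radial spoke genes, Rsph1, a protein of the spoke head, was higher in AKR. It stood at 2.76, 4.37, 4.25 and 4.33 CPM in AKR naive and 1.77, 1.39, 2.07 and 1.85 CPM in B6N naive, and at 2.22, 1.95 and 3.64 CPM in AKR OFL and 0.892, 1.26 and 0.991 CPM in B6N OFL. The ranges did not overlap within a set, although AKR naive replicate 1 lay well under the other AKR naive libraries. The difference was 1.16 (SE 0.17, edgeR adjusted p = 3.24e-05) in naive and 1.30 (SE 0.28, adjusted p = 0.00269) in OFL libraries. Rsph10b, another protein of the spoke head, was lower in AKR, at 3.25, 2.80, 2.54 and 2.81 CPM against 7.08, 8.82, 6.67 and 7.68 CPM in naive libraries, and at 5.12, 4.39 and 4.66 CPM against 7.61, 8.68 and 8.99 CPM after OFL. Its groups did not overlap. The differences were -1.41 (SE 0.12, edgeR adjusted p = 4.61e-08) and -0.84 (SE 0.13, adjusted p = 0.00013). Rsph4a, also of the spoke head, passed in naive libraries alone, at -0.80 (SE 0.21, edgeR adjusted p = 0.00529), with -0.76 (SE 0.31, adjusted p = 0.110) after OFL, and whether these differences differ was covered by the test of the interaction below. Rsph9 did not pass in either set (-0.10 and -0.26).

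Rsph3a and Rsph3b, spoke stalk genes, are also near-identical copies, with 99.2% identical coding bases, and their single values are uncertain. Both were higher in AKR naive libraries, Rsph3a by 0.48 (SE 0.11, edgeR adjusted p = 0.00212) and Rsph3b by 0.53 (SE 0.11, adjusted p = 0.000954). Refitted as a sum, they stood at 11.7 to 11.9 CPM in AKR naive and 7.92 to 8.69 CPM in B6N naive, a difference of 0.51 (SE 0.07, edgeR adjusted p = 1.70e-05). After OFL the sum was 10.3 to 11.4 CPM in AKR and 9.87 to 12.4 CPM in B6N, with the strains overlapping (-0.10, adjusted p = 0.619).

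In the central pair projection, Cfap46 stood at 16.4, 12.8, 14.8 and 16.3 CPM in AKR naive and 9.95, 9.72, 7.90 and 9.62 CPM in B6N naive. No library of the strains overlapped, and the difference of 0.69 (SE 0.09) passed (edgeR adjusted p = 1.09e-05). After OFL Cfap46 was at 9.79, 10.2 and 9.17 CPM in AKR and 9.33, 7.21 and 6.16 CPM in B6N, which overlap, and the difference of 0.35 (SE 0.14) did not pass (adjusted p = 0.0857). Cfap74 was lower in AKR naive by -0.15 (SE 0.05, edgeR adjusted p = 0.0243). Its call was lost in 7 of 16 alternatives, with an adjusted p of up to 0.0693. The 7 were DESeq2, no count filter and leaving out AKR naive replicate 2, 3 or 4 or B6N naive replicate 3 or 4. In OFL libraries Cfap74 differed by 0.17 (SE 0.09, adjusted p = 0.226).

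Among the other Cfap genes, Cfap44, which tethers the inner arm motor f, was at 3.54, 3.64, 3.11 and 3.33 CPM in AKR naive and 6.61, 4.95, 7.36 and 6.48 CPM in B6N naive, then at 4.15, 4.11 and 4.51 CPM in AKR OFL and 5.56, 6.30 and 8.21 CPM in B6N OFL. It was lower in AKR by -0.89 (SE 0.12, edgeR adjusted p = 2.24e-05) and by -0.66 (SE 0.16, adjusted p = 0.00735), with no overlap of the strains. Leaving out B6N OFL replicate 3 ended the call after OFL (adjusted p = 0.0542). Cfap45, a protein inside the doublet microtubules, was at 2.12 to 3.03 CPM in AKR naive and 3.87 to 4.68 CPM in B6N naive (-0.78, SE 0.13, edgeR adjusted p = 0.000164). After OFL it was at 2.67, 1.39 and 3.2 CPM in AKR and 3.70, 4.13 and 4.11 CPM in B6N (-0.73, SE 0.22, adjusted p = 0.0284). That call ended with DESeq2 and without AKR OFL replicate 2, where the difference was -0.45, and without B6N OFL replicate 2 or 3, with an adjusted p of up to 0.147.

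Cfap36, the most abundant member, had smaller but tight differences. It stood at 54.7, 53.5, 50.8 and 51.8 CPM in AKR naive against 69.2, 74.8, 71.7 and 72.7 CPM in B6N naive, and at 59.7, 59.6 and 57.6 CPM in AKR OFL against 69.7, 82.4 and 79.5 CPM in B6N OFL. All AKR libraries were below all B6N libraries. The difference was -0.45 (SE 0.04, edgeR adjusted p = 1.12e-07) in naive and -0.40 (SE 0.06, adjusted p = 0.00015) in OFL libraries. Cfap100, which belongs to a complex that regulates inner arm f, was lower in AKR naive by -0.46 (SE 0.08, edgeR adjusted p = 0.000268) but not after OFL (0.10, adjusted p = 0.683). Cfap300 stood at 18.1, 16.8 and 14.3 CPM in AKR OFL and 11.1, 10.8 and 11.5 CPM in B6N OFL, which do not overlap. It was higher in AKR after OFL (0.55, SE 0.10, edgeR adjusted p = 0.000765) and differed by 0.10 (adjusted p = 0.296) in naive libraries. Smaller naive differences passed for Cfap298 (0.22, SE 0.06, edgeR adjusted p = 0.00484), Cfap20 (0.13, SE 0.05, adjusted p = 0.0377) and Cfap69 (-0.12, SE 0.05, adjusted p = 0.0467). The Cfap20 call ended with DESeq2, with the replicate block and in every fit that left out a library other than AKR naive replicate 3, with an adjusted p of up to 0.120. The Cfap69 call ended in 11 of 16 alternatives, with an adjusted p of up to 0.143, among them every fit that left out a library other than AKR naive replicate 1.

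Markers of ependymal cells, the ventricle-lining cells with motile cilia, were low in all libraries, with a summed level below that of B6N in every AKR library of the same set. The 15 markers summed to 9.40 to 10.7 CPM in AKR naive, 13.0 to 17.0 CPM in B6N naive, 7.56 to 7.94 CPM in AKR OFL and 9.67 to 10.4 CPM in B6N OFL libraries. The naive gap was led by Foxj1 (means of 1.70 CPM in AKR and 3.76 CPM in B6N) and Tekt4 (0.272 and 1.76 CPM). Rarres2, Odf3b and Hdc had the higher naive mean in AKR, and Rarres2 and Odf3b did after OFL. Between 8 and 10 of the 15 averaged under 0.5 CPM in each group, and the defining markers Tmem212, Ccdc153 and Mia were at 0 in some libraries of each group. Of 7 markers tested in naive libraries 1 was higher in AKR (Odf3b, 0.64, SE 0.20) and 3 were lower (Foxj1, Tekt1 at -0.88 and Tekt4 at -2.62). Over all genes tested 18.3% were higher and 19.5% lower in naive libraries, and 16.4% passed in OFL libraries. Nothing is read from the counts of markers called. The Odf3b call was lost with DESeq2 and without AKR naive replicate 4 or B6N naive replicate 1 or 4 (adjusted p up to 0.0823). In OFL libraries 0 of 5 markers passed by edgeR and 0 by DESeq2, with 1 at an unadjusted p under 0.05. Foxj1, the master regulator of motile cilia, was at 1.33 to 1.95 CPM in AKR naive and 3.26 to 4.54 CPM in B6N naive (-1.13, SE 0.16, edgeR adjusted p = 1.83e-05). It differed by -0.75 (adjusted p = 0.0534) after OFL. Markers of choroid plexus summed to 3.93 to 7.80 CPM over all libraries. In bulk tissue the number of ciliated cells and the RNA per cell cannot be told apart, and neither was tested. The part of these cells in the members' strain differences was not tested.

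Other genes of the motile cilium machinery were called in both directions too. Over all genes tested 18.3% were higher and 19.5% lower in naive libraries, and 7.5% and 8.86% in OFL libraries. Nothing is read from the counts of the lists in this paragraph. Of 34 other axoneme genes tested in naive libraries 7 were higher and 11 lower in AKR, with a median of -0.07, and of 30 in OFL libraries there were 4 higher and 5 lower (median -0.13), of which DESeq2 called 3. The inner arm chain gene Wdr78 was lower in AKR naive by -0.67 (SE 0.08, edgeR adjusted p = 6.36e-06), and the nexin link gene Drc1 was higher by 0.38 (SE 0.05, adjusted p = 2.44e-05). Spag6, of the central pair, was higher in AKR by 0.66 (SE 0.11) in naive and 0.64 (SE 0.16) in OFL libraries, and Hydin, of the same structure, was lower after OFL by -1.04 (SE 0.27, edgeR adjusted p = 0.00957). DESeq2 did not call Spag6 (adjusted p = 0.0561) or Hydin after OFL, and Hydin was also lost in a fit of all 14 libraries (adjusted p up to 0.0717). Spag6l, of the same list, went the other way after OFL, at -0.50 to -0.39 over the alternatives. Its call ended without B6N OFL replicate 2 (edgeR adjusted p = 0.0620). Whether Spag6 and Spag6l share stretches of sequence was not tested, so the value of Spag6 alone is uncertain. Of 12 dynein arm assembly factors 2 were higher and 2 lower in naive libraries, with Zmynd10 at 0.78 (SE 0.15). DESeq2 called 2 of these 4. In OFL libraries 0 of 12 passed by edgeR and 0 by DESeq2, with 2 at an unadjusted p under 0.05. Of 16 regulators of multiciliated cells 1 was higher and 2 lower in naive libraries.

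Genes shared with the primary cilium were also called in both directions. Over all genes tested 37.8% passed in naive (18.3% higher, 19.5% lower) and 16.4% in OFL libraries (7.5% higher, 8.86% lower). Nothing is read from the counts of the lists that follow. Of 40 genes of intraflagellar transport and the BBSome, which carry cargo in all cilia, 7 were higher and 5 lower in AKR naive libraries, with a median of -0.01, and Ift122 was higher by 0.33 (SE 0.05) in naive and 0.40 (SE 0.06) in OFL libraries. Of 17 genes of the neuronal primary cilium 3 were higher and 5 lower in AKR naive libraries and 2 and 2 in OFL libraries. The somatostatin receptor gene Sstr3, whose protein sits in neuronal cilia, was lower in AKR by -0.59 (SE 0.05) and -0.45 (SE 0.08). Of 19 genes of cytoplasmic dynein and dynactin, the transport motor related to the arms, 2 were higher and 4 lower in naive libraries.

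Promoters were read for a look at what the members share apart from their names. RefSeq's windows (250 bases before to 50 after a start, GRCm38.p6) matched 44 of the 55 members. The X-box, the site known to bind RFX factors, was searched on both strands by its consensus and occurred in 8 of the 44 genes (18.2%), against 1.75% of 27025 genes: Cfap298, Cfap44, Cfap45, Cfap58, Cfap99, Dnaic1, Dnaic2 and Rsph3b. GTTGCC, a common form of its first arm, searched on both strands and able to overlap the X-box, occurred in 36.4% of the members and 14.1% of all genes. The FOX core GTAAACA occurred in 6.82% of the members and 4.05% of all genes. These motifs were chosen after other patterns had been tried, and a match describes letters, not binding. The 250 bases before the start of 3 genes, 5′ to 3′ on the plus strand with the X-box in capitals, show that it lies close to the start in each, at chr16:44394549-44394798 (Cfap44), chr4:41569544-41569793 (Dnaic1) and chr11:114727169-114727418 (Dnaic2).
Cfap44: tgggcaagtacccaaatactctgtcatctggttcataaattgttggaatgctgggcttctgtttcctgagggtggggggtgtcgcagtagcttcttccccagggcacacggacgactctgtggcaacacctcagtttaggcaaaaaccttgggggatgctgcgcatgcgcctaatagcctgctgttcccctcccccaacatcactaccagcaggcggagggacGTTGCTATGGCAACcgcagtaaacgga
Dnaic1: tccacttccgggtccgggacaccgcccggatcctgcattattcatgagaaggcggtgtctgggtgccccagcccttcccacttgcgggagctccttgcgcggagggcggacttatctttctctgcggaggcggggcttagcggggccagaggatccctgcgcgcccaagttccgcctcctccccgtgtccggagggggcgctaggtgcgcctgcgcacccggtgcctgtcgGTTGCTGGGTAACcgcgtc
Dnaic2: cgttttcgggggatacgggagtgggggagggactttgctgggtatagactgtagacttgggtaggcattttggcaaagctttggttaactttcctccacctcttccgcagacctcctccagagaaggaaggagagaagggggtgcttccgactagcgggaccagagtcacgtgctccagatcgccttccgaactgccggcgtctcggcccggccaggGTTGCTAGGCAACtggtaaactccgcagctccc
The X-box began 27 bases before the start in Cfap44, 19 in Dnaic1 and 33 in Dnaic2. Genes with the site did not share a strain difference: Cfap44 and Cfap45 were lower in AKR naive libraries, Cfap298 and Rsph3b were higher, and Dnaic1, Dnaic2 and Cfap99 did not pass.

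The comparison of OFL with naive libraries asks what differs after the conditioning, but each condition is also a separate set of libraries, so the conditioning and the library set cannot be told apart. Within both strains the members moved both ways. The outer arm heavy chains Dnah5 and Dnah9 were higher, and the heavy chains Dnah3 and Dnah17 and several Cfap and Rsph genes were lower. Dnah3, Dnah17, Cfap157, Rsph6a and Dnaic2 did not pass the filter in the OFL libraries alone, and Dnah12 did not in the naive libraries alone. They were tested here only through the condition where they are higher, so the counts by direction below describe the genes tested. Of 41 genes tested, 27 passed in AKR, against 78.7% of all genes, with 11 higher (39.8% of all genes) and 16 lower (38.8%). In B6N 25 passed, against 78.4% of all genes, with 7 higher (40.0%) and 18 lower (38.4%). The median log2 difference was -0.05 in AKR (all genes -0.01) and -0.27 in B6N (all genes 0.00). With library sizes and factors taken from protein-coding genes alone, which shifted the median of all genes by 0.13 in both strains, the split became 15 higher and 13 lower in AKR and 11 higher and 15 lower in B6N. The ranges of the conditions did not overlap for 26 of the 41 in AKR (11 higher, 15 lower) and 24 in B6N (6 higher, 18 lower), against 76.7% of all genes in each, or 38.9% higher and 37.8% lower in AKR and 39.2% higher and 37.4% lower in B6N. Nothing is read from these shares, and the split of the calls moved with the library factors as given above. Cell type markers also moved with the condition: 4 markers of glutamatergic neurons summed to 4318 to 4879 CPM in naive and 1980 to 2260 CPM in OFL libraries, and 7 of astrocytes to 3040 to 3751 CPM and 4004 to 4809 CPM. The astrocyte sum was led by Slc1a2, a glutamate transporter gene at 2142 and 2501 CPM on average in naive and 3207 and 3888 CPM in OFL libraries of AKR and B6N. Most of that list went the other way, with 1 higher and 4 lower of 7 in AKR and 2 higher and 5 lower in B6N, Gfap and Gja1 among the lower ones in both. Their part in the members' differences was not tested.

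In both strains 5 genes passed as higher (Dnah5, Dnah9, Dnah12, Dnah14 and Cfap69) and 14 as lower (Dnah1, Dnah2, Dnah3, Dnah10, Dnah17, Dnaic1, Rsph1, Rsph6a, Rsph9, Cfap20, Cfap46, Cfap65, Cfap157 and Cfap298), and 0 in opposite directions. These 19 are 70.4% of the 27 called in AKR and 76.0% of the 25 called in B6N, against 89.8% and 90.1% over all genes. Nothing is read from these shares. Dnah12 among the higher and Dnah3, Dnah17, Cfap157 and Rsph6a among the lower were tested only through the condition where they are higher. Their calls, and that of Dnaic2 below, carry this limit of the filter and describe the genes tested.

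**Figure D4:**
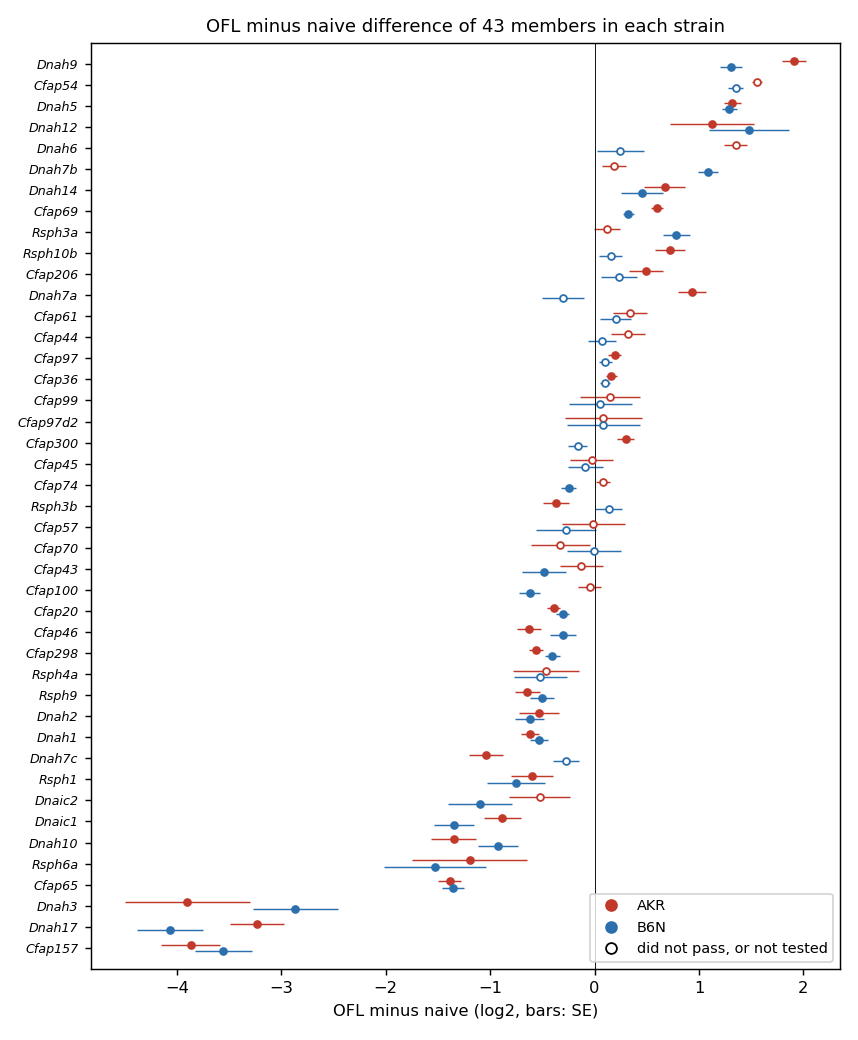
Log2 difference OFL minus naive of the 43 members that passed the filter, in AKR (red) and B6N (blue), with bars of 1 SE. Filled points passed the test, open points did not, or were not tested (Cfap54 and Dnah6). Dnah9, Cfap54, Dnah5 and Dnah12 lie furthest to the right by the mean of the strains, and Dnah3, Dnah17 and Cfap157 lie furthest to the left in both strains.

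Of the outer arm heavy chains, Dnah9 rose from 3.25 to 3.76 CPM in AKR naive libraries to 16, 12.3 and 12.3 CPM after OFL, and from 5.51 to 6.86 CPM in B6N naive to 15.6, 14.9 and 13.4 CPM. No OFL library overlapped a naive library. The log2 difference was 1.91 (SE 0.12, edgeR adjusted p = 2.96e-14) in AKR and 1.31 (SE 0.10, adjusted p = 9.53e-12) in B6N. Dnah5, whose values are given above, was higher by 1.32 (SE 0.08, edgeR adjusted p = 4.22e-14) and 1.29 (SE 0.07, adjusted p = 8.05e-15). Dnah17 went the other way, from 4.38, 4.24, 3.68 and 3.29 CPM in AKR naive to 0.297, 0.418 and 0.509 CPM in AKR OFL, and from 3.30, 2.92, 2.76 and 3.82 CPM in B6N naive to 0.274, 0.140 and 0.142 CPM in B6N OFL. Its counts summed to 336 in AKR naive and 17 in AKR OFL, a naive level 9.52 times that after OFL (exact 95% interval 5.86 to 16.5, counting error only), and to 294 and 8 in B6N, a ratio of 17.3 (8.68 to 40.5). The fitted log2 differences were -3.23 (edgeR adjusted p = 9.92e-12) and -4.06 (adjusted p = 4.86e-12), with the limit of the filter given above.

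Of the inner arm heavy chains, Dnah3 was at 1.13, 0.848, 0.518 and 0.735 CPM in AKR naive and 0.0742, 0 and 0.0728 CPM in AKR OFL, that is at 70 counts in all against 2. The ratio of naive to OFL was 16.9 (exact 95% interval 4.50 to 142, counting error only) in AKR, and 7.54 (3.54 to 19.2) in B6N, from 112 counts against 7. Both strains passed (edgeR adjusted p = 1.46e-06 and 4.60e-07), with the limit of the filter given above. Dnah10 fell by 1.35 (SE 0.22) in AKR and by 0.92 (SE 0.19) in B6N on the log2 scale, and Dnah1 fell by 0.62 (SE 0.09) and by 0.53 (SE 0.09). Dnah2 fell by 0.53 (SE 0.19, edgeR adjusted p = 0.0131) in AKR and by 0.62 (SE 0.14) in B6N. The Dnah2 call in AKR ended without AKR OFL replicate 2 and with factors from protein-coding genes, with an adjusted p of up to 0.0787. Dnah12 was higher by 1.12 (SE 0.40, edgeR adjusted p = 0.0134) in AKR and 1.48 (SE 0.38) in B6N, from group means of 0.391 and 0.378 CPM, and leaving out AKR OFL replicate 2 ended the AKR call (adjusted p = 0.0771). Dnah14 was higher by 0.67 (SE 0.20) and 0.46 (SE 0.20, edgeR adjusted p = 0.0395), but leaving out AKR OFL replicate 3 ended the AKR call (adjusted p = 0.0568). The B6N call was lost without B6N naive replicate 2 (0.29), B6N OFL replicate 1 or B6N OFL replicate 3 (0.27), with an adjusted p of up to 0.277. The Dnah7 copies again differed from each other. In AKR Dnah7a was higher (0.93, SE 0.13, edgeR adjusted p = 3.95e-07), Dnah7c was lower (-1.04, SE 0.16, adjusted p = 1.94e-06) and Dnah7b stood at 0.19 (adjusted p = 0.136). In B6N Dnah7b was higher (1.09, SE 0.10, edgeR adjusted p = 1.22e-10), with Dnah7a at -0.30 (adjusted p = 0.168) and Dnah7c at -0.27 (adjusted p = 0.052). Their sum was higher in both, by 0.19 (SE 0.08, edgeR adjusted p = 0.0372) in AKR and 0.36 (SE 0.08, adjusted p = 0.000204) in B6N. Dnah6 is described only: OFL minus naive was 1.35 in AKR but 0.25 in B6N. The latter moved between 0.10 without B6N naive replicate 1 and 0.42 without B6N naive replicate 3.

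The intermediate chain Dnaic1 fell from 3.25, 3.98, 3.83 and 3.33 CPM to 2.08, 1.88 and 1.89 CPM in AKR, and from 3.42, 3.6, 2.81 and 4.12 CPM to 1.17, 1.26 and 1.70 CPM in B6N. The conditions did not overlap in either strain, and the differences were -0.88 (SE 0.18, edgeR adjusted p = 6.30e-05) and -1.35 (SE 0.19, adjusted p = 4.00e-07). Dnaic2 passed in B6N at -1.10 (SE 0.30, edgeR adjusted p = 0.00192), and stood at -0.53 (SE 0.29, adjusted p = 0.103) in AKR.

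Of the radial spoke genes, Rsph9, of the spoke head, fell by 0.64 (SE 0.12) in AKR and by 0.50 (SE 0.11) in B6N. Its levels were 9.15 to 10.3 CPM and 9.36 to 11.3 CPM in the naive groups, and 5.43 to 6.84 CPM and 6.09 to 9.13 CPM after OFL, in AKR and B6N. Rsph1 fell by 0.60 (SE 0.20, edgeR adjusted p = 0.00838) in AKR and by 0.75 (SE 0.28, adjusted p = 0.0163) in B6N. Leaving out AKR OFL replicate 2 ended the Rsph1 call in AKR (adjusted p = 0.08), and leaving out AKR OFL replicate 3 moved the value to -0.92. In B6N the call was lost when B6N OFL replicate 1 was left out (adjusted p = 0.0692). Rsph6a, known from the sperm flagellum, averaged 0.167 to 0.547 CPM and was lower by -1.20 (edgeR adjusted p = 0.0491) and -1.53 (adjusted p = 0.00645). Its AKR call ended in 11 of 17 alternatives, with an adjusted p of up to 0.201, among them leaving out AKR naive replicate 1 or 4, AKR OFL replicate 1 or 3, B6N naive replicate 3 or B6N OFL replicate 1 or 2. In B6N, leaving out B6N OFL replicate 3 ended it (adjusted p = 0.0519). Rsph10b rose in AKR, where the difference was 0.73 (SE 0.15, edgeR adjusted p = 6.20e-05), and stood at 0.15 (adjusted p = 0.197) in B6N. Rsph3a, with the limit of its copy, was higher in B6N (0.78, SE 0.13, edgeR adjusted p = 2.81e-06) and stood at 0.12 (adjusted p = 0.389) in AKR.

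In the central pair projection, Cfap54 is described only, at 1.55 in AKR and 1.35 in B6N. Cfap46 fell by 0.63 (SE 0.11, edgeR adjusted p = 1.51e-05) in AKR and by 0.30 (SE 0.12, adjusted p = 0.0304) in B6N. The B6N call ended in 9 of 22 alternatives, with an adjusted p of up to 0.233, among them leaving out B6N naive replicate 1, 2 or 4 or B6N OFL replicate 2 or 3. The B6N value was -0.48 without B6N OFL replicate 1 and -0.17 without B6N OFL replicate 3, and -0.17 with factors from protein-coding genes. Cfap74 passed in B6N at -0.25 (SE 0.07, edgeR adjusted p = 0.00225), which ended with factors from protein-coding genes (-0.11, adjusted p = 0.136).

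Of the other Cfap genes, Cfap157, which sperm flagella need, was at 3.30, 3.26, 2.80 and 3.59 CPM in AKR naive and 0.222, 0.279 and 0.146 CPM after OFL, and at 3.15, 2.7, 3.06 and 3.39 CPM in B6N naive and 0.206, 0.350 and 0.212 CPM after OFL. The naive level was 15.0 times the OFL level in AKR (exact 95% interval 7.81 to 33.2, counting error only) and 12 times in B6N (6.63 to 24.4). Both differences passed (edgeR adjusted p = 1.73e-12 and 3.98e-12), with the limit of the filter given above. Cfap65, another flagellum gene, fell from 15.2 to 18.7 CPM to 6.30, 5.43 and 6.91 CPM in AKR and from 14.9 to 16.3 CPM to 6.72, 6.30 and 4.95 CPM in B6N, by 1.39 (SE 0.11) and by 1.36 (SE 0.11) on the log2 scale. The conditions did not overlap. Cfap298 fell by 0.56 (SE 0.07) and by 0.41 (SE 0.07), and Cfap20 fell by 0.39 (SE 0.06) and by 0.30 (SE 0.06), the latter being -0.17 with factors from protein-coding genes. Cfap69 was higher by 0.60 (SE 0.06, edgeR adjusted p = 1.97e-10) in AKR and 0.32 (SE 0.06, adjusted p = 7.15e-06) in B6N. Smaller differences passed in 1 strain. In AKR, Cfap206 (0.49, SE 0.16), Cfap97 (0.19, SE 0.06) and Cfap36 (0.16, SE 0.05) were higher and Rsph3b was lower (-0.37, SE 0.12). Cfap206 was lost without AKR OFL replicate 2 (adjusted p = 0.0662), Cfap97 without AKR OFL replicate 1 (0.11, adjusted p = 0.146) and Rsph3b with factors from protein-coding genes (-0.24, adjusted p = 0.0837), which gave 0.32 for Cfap97 and 0.29 for Cfap36. In B6N, Cfap100 (-0.62, SE 0.10) and Cfap43 (-0.48, SE 0.21, edgeR adjusted p = 0.0372) were lower, and Cfap43 was lost in 7 of 22 alternatives (adjusted p up to 0.148), among them leaving out B6N naive replicate 1 or 3 or B6N OFL replicate 1 or 2.

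Where a member's exons lie under an exon of the other strand, reads of the partner can enter its count if strand is ignored. This holds for 23 of the 55 members, with 10.5% of the exonic bases of Dnah3 (under Lyrm1), 53.6% of Cfap298 and 2.16% of Dnah17. Over all genes, the 116 whose exons lie to at least 80% under an exon of the other strand had median OFL minus naive differences of 6.45 in AKR and 6.6 in B6N. The 19 tested members with any such base had medians of -0.37 and -0.41, and the 22 without had 0.04 and -0.22. The part of strand in these differences was not tested.

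Among the other axoneme genes there were 8 higher and 15 lower of 34 in AKR and 9 higher and 15 lower in B6N. Over all genes tested 39.8% were higher and 38.8% lower in AKR, and 40.0% and 38.4% in B6N. These shares stand beside every list of this paragraph, and nothing is read from the counts of the lists. Dnal4, a dynein light chain gene, fell by 0.75 (SE 0.06) and by 0.77 (SE 0.06). Wdr78 was higher by 1.16 (SE 0.08) and 0.61 (SE 0.08). Of 40 transport genes 17 were higher and 13 lower in AKR and 17 higher and 12 lower in B6N, and Dync2h1, the heavy chain of the dynein that moves along all cilia, was higher by 1.77 (SE 0.04) and 1.56 (SE 0.04). Of 16 regulators of multiciliated cells 4 were higher and 8 lower in AKR and 5 higher and 8 lower in B6N. The X-box binding factors Rfx1 and Rfx3 went opposite ways. Rfx3 was at 58.3 CPM on average in both naive groups and at 127 CPM in both OFL groups (1.13, SE 0.05, and 1.12, SE 0.05). Rfx1 fell from 54.7 and 59.3 CPM to 29.7 and 32.1 CPM in AKR and B6N (-0.88, SE 0.09, and -0.89, SE 0.08). Foxj1 fell by 0.53 (SE 0.24, edgeR adjusted p = 0.0481) in AKR and by 0.92 (SE 0.18) in B6N. Its AKR call ended in 12 of 22 alternatives, with an adjusted p of up to 0.132, among them leaving out AKR naive replicate 2, 3 or 4, AKR OFL replicate 1, 2 or 3 or B6N naive replicate 1 or 2. Of the 8 ependymal markers tested, 1 was higher (Rarres2, 0.49, SE 0.20) and 3 lower in AKR, of which DESeq2 called 2, and 0 were higher and 4 lower in B6N. In AKR the Rarres2 call was lost in 6 of 22 alternatives (adjusted p up to 0.0959), among them leaving out AKR naive replicate 2 or 4 or AKR OFL replicate 1 or 3. The call of Enkur (-0.59, SE 0.25) was lost in 5 of 22 (adjusted p up to 0.168), among them leaving out AKR naive replicate 2 or AKR OFL replicate 1 or 3.

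The interaction, the change in AKR minus the change in B6N, asks whether the conditioned libraries differ from the naive ones to a different extent in the strains. It equals the strain difference after OFL minus that in naive mice. Of the 41 genes 9 passed, against 5.15% of all genes tested, with 6 higher (3.61% of all genes) and 3 lower (1.54%). The median of the 41 was 0.09 against 0.01 for all genes. The families were chosen on strain differences, from which the interaction is built, so nothing is read from these shares. The count was 5 of 22 over genes with no exon under the other strand, 6 of 38 with the copies of Dnah7 and Rsph3 summed, and between 3 and 10 when a library was left out. It was 3 without B6N OFL replicate 3 and 5 without AKR OFL replicate 1, AKR OFL replicate 2 or B6N OFL replicate 2.

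Of the 9, 4 are copies. Dnah7a had an interaction of 1.24 (SE 0.24, edgeR adjusted p = 0.00176), Dnah7b -0.90 (SE 0.15, adjusted p = 0.000451) and Dnah7c -0.77 (SE 0.21, adjusted p = 0.0278), while their sum stood at -0.17 (SE 0.11, adjusted p = 0.492). Dnah7a and Dnah7b passed under every alternative run that kept them apart. Dnah7c ended without AKR naive replicate 3, AKR OFL replicate 2, B6N naive replicate 3 or B6N OFL replicate 3 (adjusted p up to 0.146). Rsph3a had -0.67 (SE 0.18, edgeR adjusted p = 0.0233) and ended without AKR OFL replicate 3, B6N naive replicate 1, B6N OFL replicate 1 or B6N OFL replicate 3 (adjusted p up to 0.0707). The sum of Rsph3a and Rsph3b passed at -0.60 (SE 0.12, edgeR adjusted p = 0.00372), with a difference in B6N of 0.47 (SE 0.09, adjusted p = 2.92e-05) and -0.13 (SE 0.09, adjusted p = 0.179) in AKR.

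The other 5 have no close copy in the list. Dnah9 rose further in AKR, by 0.61 more (SE 0.16, edgeR adjusted p = 0.0211), from a lower naive level to about the same level after OFL in both strains. It ended without AKR OFL replicate 1, B6N naive replicate 3 or B6N OFL replicate 3 (adjusted p up to 0.0931). Cfap100 (0.57, SE 0.15, edgeR adjusted p = 0.0221) likewise went from a strain difference in naive libraries to overlapping ranges after OFL, with 5.75 to 7.31 CPM in AKR and 5.95 to 6.58 CPM in B6N. It ended without AKR OFL replicate 1 or 2 or B6N OFL replicate 2 or 3 (adjusted p up to 0.0947). Cfap300 (0.46, SE 0.12, edgeR adjusted p = 0.0218) rose in AKR by 0.30 (SE 0.08) and stood at -0.16 (adjusted p = 0.0945) in B6N, and ended without AKR OFL replicate 1 or 2 or B6N OFL replicate 2 (adjusted p up to 0.0939). Cfap74 (0.33, SE 0.10, edgeR adjusted p = 0.0497) and Cfap69 (0.27, SE 0.08, adjusted p = 0.0391) each ended in 12 alternatives, with adjusted p of up to 0.189 and 0.129. Dnah6 is described only, at 1.11, and Rsph4a did not pass (0.05, adjusted p = 0.986). Of the other lists, 4 of 34 other axoneme genes passed (3 higher, 1 lower, and DESeq2 called 2), against 5.15% of all genes. Wdr78 led them at 0.55 (SE 0.11, edgeR adjusted p = 0.00375). Of 13 assembly factors and 8 ependymal markers 0 passed by edgeR or DESeq2, with 2 and 1 at an unadjusted p under 0.05. Nothing is read from the counts of these lists.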

How the data were processed

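RNA of anterior cingulate cortex was extracted with Trizol and made into libraries with a TruSeq RNA v2 kit, per the labels' protocols. Reads were handled with cutadapt 2.7, TopHat2 2.1.1, HTSeq and CASAVA on GRCm38, per the submitters' processing notes, which also name edgeR, and the annotation release and the strand setting of the counting are not given in the sources used here. The authors deposited raw counts per Ensembl gene in 2 tables, which were used as they are, and CPM tables, which were not used.

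Symbols, classes and positions came from GENCODE of GRCm38, which held 53360 of the 53465 identifiers. Counts were tested with edgeR 4.0.16 (R 4.3.3, limma 3.58.1): expression filter by group, TMM factors, quasi-likelihood F-test, two-sided, Benjamini-Hochberg over all genes tested. Strains were compared within each set, and OFL minus naive and the interaction came from 1 fit of 14 libraries. SE came from the same fit. DESeq2 1.42.0, other factors, filters and left-out libraries were alternatives. Depth limits precision through the counts given in the report, and intervals cover counting error only. Scripts were tested on simulated data.

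The members, lists and tests were chosen with earlier results of these data known. The text names, in each comparison, up to 10 called genes per direction with a mean of at least 0.5 CPM, the 10 most abundant per kb, members of small classes and up to 4 called genes per list. Members called with smaller differences or levels, Cfap99, Gm9008, the promoter motifs and the summed copies were added after their values were seen. Some genes within this rule are left out of the text. The symbols Dnaaf4 and Ktu were not found in the annotation used.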

Additional observations from a re-analysis of the deposited data

Results flagged for a closer look

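Of the 76 groups of 4 naive libraries looked at for an isolated library, 4 had one, and chance gives about 1 in 20. They were Cfap46 in B6N, whose lowest library, B6N naive replicate 3, stood at 7.90 CPM (the others at 9.62 to 9.95), Cfap54 in B6N, whose highest, B6N naive replicate 4, stood at 9.92 CPM (9.56 to 9.58), Dnah5 in AKR, whose lowest, AKR naive replicate 4, stood at 8.13 CPM (8.60 to 8.65), and Rsph1 in AKR, whose lowest, AKR naive replicate 1, stood at 2.76 CPM (4.25 to 4.37).

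The change from naive to OFL libraries differed between the strains, by the test of the interaction, for 9 genes. It was larger or less negative in AKR for Dnah7a (1.24), Dnah9 (0.61), Cfap100 (0.57), Cfap300 (0.46), Cfap74 (0.33) and Cfap69 (0.27), and smaller or more negative for Dnah7b (-0.90), Dnah7c (-0.77) and Rsph3a (-0.67). Values are log2 differences.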

How the results depend on the processing

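No member or list gene named as called changed direction under any alternative run. The counts of members called stayed within 1.5 times the main count in the strain and OFL comparisons. Leaving out each library gave 16 to 19 called members in naive and 9 to 13 in OFL libraries between the strains, 25 to 28 for OFL minus naive in AKR, 22 to 27 in B6N and 3 to 10 for the interaction. The interaction count was 5 over genes with no exon under the other strand, where fewer genes were tested. Over the alternatives that gave a gene its own value, 16 of 20 naive and 9 of 11 OFL strain calls were kept. For OFL minus naive 19 of 27 were kept in AKR and 19 of 25 in B6N, and for the interaction 2 of 9. Single copies of Dnah7 and Rsph3 had no value of their own in the summed fit. The 2 interaction calls kept were Dnah7a and Dnah7b, whose sum with Dnah7c did not pass (-0.17, edgeR adjusted p = 0.492). That sum did not pass between the strains in naive or OFL libraries either.

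Same-numbered libraries of different groups did not vary together: the correlations of their deviations across genes were weak, for example -0.0998 for number 1 of the naive strains and 0.0858 for number 1 of the OFL strains. With the replicate number as a replicate block, 17 and 12 members passed between the strains, 28 and 26 for OFL minus naive in AKR and B6N, and 7 for the interaction.

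Members under about 1 CPM rest on few counts, most of all after OFL. Both strains were compared on 1 reference build, and the effect of strain variants on mapping was not tested.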
